A study of Bos taurus with 29 samples.

Results

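The genes of the integrin and laminin families were followed through RNA sequencing libraries of bovine corpus luteum, which forms in the ovary after ovulation and is the source of progesterone. Members were the rows of the corpus luteum count table whose symbol is an integrin alpha, integrin beta or laminin chain followed by a number, which gave 31 of 19112 genes: 12 integrin alpha, 8 integrin beta and 11 laminin genes. All 31 matched a symbol of the RefSeq gene table and all 31 passed the filter on low counts, as did 18939 genes in all. LAMB4 was not analysed here. Other integrin-named genes, such as ITGAV, are not members and were read in related lists.

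The 12 libraries form 4 groups of 3, named NC, CM_EE, CM_EE_AI and CM_EE_IVF, with R2, R4 and R5 as the library numbers of each group. The labels give every library as polyA RNA of Bos taurus corpus luteum from a slaughterhouse, without breed, age or stage of the cycle. The study grew endometrial explants without an embryo, with a day 7 embryo produced in vivo (AI) or with a day 7 embryo produced in vitro (IVF), and CM was taken to stand for their conditioned medium, although no label says so. NC, titled DMEN, was taken as the control. NC and CM_EE, whose titles name no embryo, are called embryo-free below, and CM_EE_AI and CM_EE_IVF embryo media. Nothing in the sources used here says what an R number is or whether libraries of a group came from separate animals, so p-values measure the spread between these libraries, which may be technical. The labels list 20 corpus luteum samples for the 12 columns, with 2 titles for each R4 and R5 column, and the R2 titles carry another number series. A separate run of R2 cannot be told apart from a difference of R2 itself.

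Integrins are receptors made of an alpha and a beta subunit that join the cell to its surrounding matrix and signal across the membrane. Laminins are secreted trimers of an alpha, a beta and a gamma chain, and they form the sheet of the basement membrane together with type IV collagen, nidogens and perlecan. In the corpus luteum, basement membrane surrounds the dense capillary bed, and luteal cells, endothelial cells and pericytes all carry integrins. The alpha subunit largely sets the ligand: collagens, laminins, or proteins with the RGD motif such as fibronectin and vitronectin.

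Library totals ran from 16536797 to 25747637 counts, and mitochondrial genes took 44.4% to 64.0% of them, with 44.4% to 48.9% in R4, 49.5% to 55.9% in R2 and 54.8% to 64.0% in R5. Levels are given in CPM, the count of a gene per TMM-scaled library total. The 31 members summed to 1351 to 2069 CPM per library, of which integrins made 722 to 1215 and laminins 544 to 928 CPM. No member was at 0 in any library, and the lowest single value was 6 counts. Lengths of the transcripts were not used here, so each gene is compared only with itself and not with other genes. The values are bulk RNA, in which fewer cells of a type and less RNA per cell cannot be told apart. Libraries with the same R number were alike across genes, and this shows in the members, where columns of one R number look alike within each block of the heat map.

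**Figure D1:**
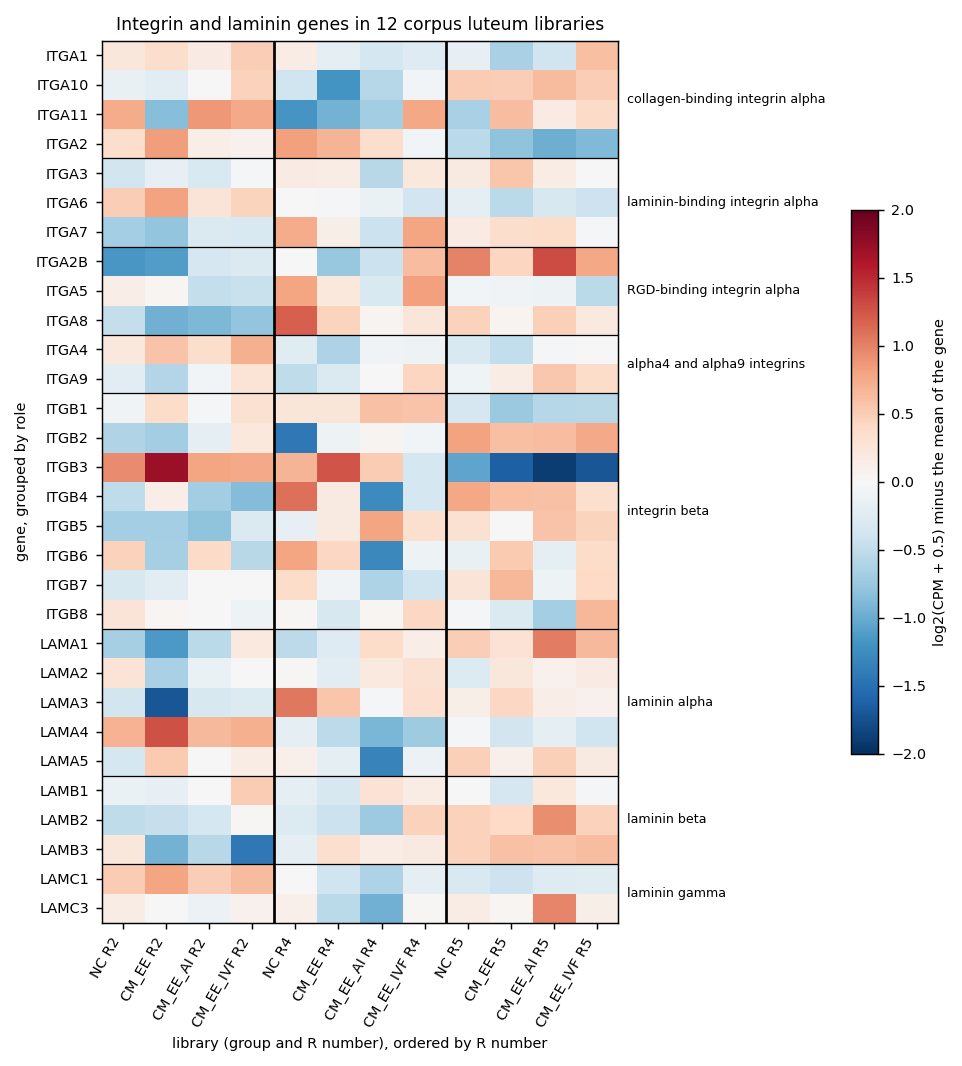
Heat map of log2(CPM + 0.5) minus each gene's mean over the 12 libraries, for 30 genes in rows grouped by role and 12 libraries in columns ordered by R number. Rows such as ITGB3 and LAMA4 change colour between the R2, R4 and R5 blocks more than between the 4 groups inside a block.

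Across the 4 groups, no integrin or laminin gene passed the test in any of the 6 comparisons between pairs of groups. By edgeR's quasi-likelihood test with Benjamini-Hochberg adjustment at 0.05, 0 of 31 members were called in each, beside 0% of all genes, and DESeq2 called 0 members as well, with the R number as a block too, where it called 1 gene in CM_EE_AI against CM_EE (0.00528%). At an unadjusted p under 0.05 the edgeR fit held 1 member, ITGA9 in CM_EE_IVF against NC (all genes 1.48%). It held 0 in CM_EE against NC (0.75%), CM_EE_AI against NC (1.12%), CM_EE_AI against CM_EE (1.28%), CM_EE_IVF against CM_EE (1.5%) and CM_EE_IVF against CM_EE_AI (0.671%). With the R number as a block, the unadjusted counts were 1 member for CM_EE against NC (all genes 1.57%), 4 for CM_EE_AI against NC (3.59%) and 6 for CM_EE_IVF against NC (4.31%). They were 5 for CM_EE_AI against CM_EE (4.57%), 6 for CM_EE_IVF against CM_EE (5.15%) and 0 for CM_EE_IVF against CM_EE_AI (0.861%). With the block the lowest adjusted p of a member in these 6 comparisons was 0.957 by edgeR and 0.361 by DESeq2, the latter for ITGB3 in CM_EE_IVF against CM_EE. The comparisons share groups, so their counts are not independent.

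ITGA9, an alpha subunit that binds tenascin-C and osteopontin, had the lowest p in CM_EE_IVF against NC. Its levels were 61.7, 50.5 and 68.5 CPM in NC, 48.3, 59.4 and 80.2 in CM_EE, 69.6, 72.2 and 105 in CM_EE_AI and 87.3, 97.3 and 93.7 in CM_EE_IVF, with R2, R4 and R5 in that order. All CM_EE_IVF libraries lay above all NC and all CM_EE libraries, and 1 of 31 members had groups apart in this way in CM_EE_IVF against NC, beside 5.73% of all genes. The log2 fold change was 0.62 (95% interval 0.03 to 1.22), with an unadjusted p of 0.0414 and an edgeR adjusted p of 1.00. Against CM_EE it was 0.57 (95% interval -0.03 to 1.16), with an edgeR adjusted p of 1.00, and 2 of 31 members, ITGA9 and LAMB1, had groups apart there, beside 5.6% of all genes. In CM_EE_AI the gene also lay above all NC libraries, and ITGA5 and ITGA9 were the 2 members with groups apart in CM_EE_AI against NC (all genes 3.93%). With the R number as a block, ITGA9 had an unadjusted edgeR p under 0.05 in each of these comparisons, and none passed adjustment.

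LAMB1, the beta chain of many laminins, had the lowest or second lowest p in both comparisons of embryo media with CM_EE. Its levels were 182, 176 and 201 CPM in NC, 177, 160.1 and 158 in CM_EE, 199, 243 and 231 in CM_EE_AI and 282, 219.8 and 195 in CM_EE_IVF, again as R2, R4 and R5. No library of CM_EE_AI or CM_EE_IVF overlapped with CM_EE, whereas both overlapped with NC. The log2 fold change was 0.44 (95% interval -0.09 to 0.97) for CM_EE_AI against CM_EE and 0.49 (95% interval -0.04 to 1.02) for CM_EE_IVF against CM_EE, with edgeR adjusted p of 1.00 and 1.00. With the R number as a block, LAMB1 had an unadjusted edgeR p under 0.05 in both comparisons, and neither passed adjustment. In CM_EE_AI against CM_EE, LAMB1 and ITGA5 were the 2 members with groups apart, beside 3.34% of all genes.

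LAMA1, the laminin alpha chain best known from early embryonic basement membranes, had the second lowest p in CM_EE_AI against CM_EE. Its levels were 75.4, 83.3 and 169.6 CPM in NC, 54.1, 99.96 and 147 in CM_EE, 82.2, 155 and 244 in CM_EE_AI and 137, 132 and 188 in CM_EE_IVF. The groups overlapped, with R5 high in all of them, and within each R number CM_EE_AI was the higher library, by log2 differences of 0.6, 0.63 and 0.73. The fold change was 0.68 (95% interval -0.33 to 1.68) on the log2 scale without the block and 0.66 (95% interval 0.16 to 1.16) with it, with edgeR adjusted p of 1.00 and 0.992. Without the block it was 0.24 without the CM_EE_AI library of R5, 0.36 without CM_EE of R2 and 1.02 without CM_EE of R5.

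ITGB4, the subunit that pairs with ITGA6 in hemidesmosomes, was named in both comparisons of embryo media with NC. Its levels were 7.92, 25.3 and 19.9 CPM in NC, 12.6, 13.1 and 17.6 in CM_EE, 6.91, 4.42 and 17.4 in CM_EE_AI and 6.03, 8.84 and 14.3 in CM_EE_IVF, as R2, R4 and R5. It was lower in both embryo media than in NC within every R number, with the widest gap in R4, and the groups overlapped. The log2 fold change was -0.89 (95% interval -2.03 to 0.26) for CM_EE_AI and -0.86 (95% interval -2.0 to 0.28) for CM_EE_IVF, with edgeR adjusted p of 1.00 and 1.00. Without the NC library of R4 these were -0.54 and -0.51, and for CM_EE_AI the value was -0.54 without its own R4 library and -1.64 without its R5 library. With the R number as a block the value for CM_EE_AI was -0.95 (95% interval -1.79 to -0.11), with an edgeR adjusted p of 0.988. The unadjusted edgeR p of ITGB4 with the block was under 0.05 in both comparisons, and neither passed adjustment. ITGA5, the fibronectin receptor subunit, was at 10.9, 17.6 and 9.62 CPM in NC, 10.2, 11.6 and 9.45 in CM_EE, 7.04, 7.98 and 9.26 in CM_EE_AI and 7.22, 18.1 and 6.72 in CM_EE_IVF. All CM_EE_AI libraries lay below all NC and CM_EE libraries, while CM_EE_IVF reached from below to above the NC libraries. For CM_EE_AI against NC its log2 fold change was -0.65 (95% interval -1.49 to 0.19), with an edgeR adjusted p of 1.00, and it was -0.34 without the NC library of R4.

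In CM_EE against NC the rule named ITGA8 and ITGA2B. ITGA8, which binds nephronectin, was at 13.1, 43.2 and 25.7 CPM in NC, 9.26, 25.5 and 19.4 in CM_EE, 9.78, 19.3 and 26 in CM_EE_AI and 10.6, 22 and 21.5 in CM_EE_IVF, lower in CM_EE within every R number but with overlapping groups. Its log2 fold change was -0.6 (95% interval -1.7 to 0.5), or -0.57 (95% interval -1.06 to -0.09) with the R number as a block, and the edgeR adjusted p was 1.00 in both fits. Without the block it was -0.1 without the NC library of R4 and -0.92 without that of R2, and -0.31 and -0.93 without the CM_EE libraries of R2 and R4. ITGA2B, the alpha subunit of the platelet fibrinogen receptor, was at 1.91, 4.88 and 10.2 CPM in NC, 1.99, 2.69 and 6.81 in CM_EE, 3.77, 3.51 and 12.9 in CM_EE_AI and 3.95, 7.79 and 8.74 in CM_EE_IVF. It was lower in CM_EE in R4 and R5 and not in R2, and its log2 fold change was -0.56 (95% interval -2.05 to 0.92), with an edgeR adjusted p of 1.00. Without the NC library of R5 that fold change turned to 0.14. LAMC3 was the 1 member whose NC and CM_EE libraries did not overlap, beside 2.69% of all genes, with 6.47 ± 0.146 CPM in NC and 5.27 ± 1.21 in CM_EE (SD, n = 3). It was chosen after its values were seen.

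Between the embryo media the rule named ITGA1 and ITGB8. ITGA1, a receptor subunit for collagens and laminins, was at 259.6, 245 and 196 CPM in NC, 282, 195 and 141 in CM_EE, 249, 173 and 168 in CM_EE_AI and 310.4, 185 and 337 in CM_EE_IVF. CM_EE_IVF was the higher library in each R number, by 0.32, 0.09 and 1.0 on the log2 scale, and the groups overlapped, with a log2 fold change of 0.5 (95% interval -0.23 to 1.22) and an edgeR adjusted p of 1.00. ITGB8, which pairs with ITGAV to activate latent TGF beta, was low throughout, at 0.286 to 1.5 CPM. Its log2 fold change of 0.86 (95% interval -0.47 to 2.19) has an interval that reaches across 0, and it was 0.52 without the CM_EE_AI library of R5. For ITGA1 the value ran from 0.33 to 0.75 under the alternative fits, and it was 0.75 without the CM_EE_AI library of R2. No member had groups apart in this comparison, beside 2.32% of all genes.

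The direction of change within R2, R4 and R5 was counted for each comparison as a description. It was the same in all 3 for 6 members in CM_EE against NC (all genes 15.9%), 13 in CM_EE_AI against NC (25.4%) and 11 in CM_EE_IVF against NC (24.7%). It was the same for 11 members in CM_EE_AI against CM_EE (21.9%), 14 in CM_EE_IVF against CM_EE (31.2%) and 3 in CM_EE_IVF against CM_EE_AI (15.5%). The median log2 fold change of the 31 members with the R number as a block ran from -0.17 in CM_EE_AI against NC to 0.21 in CM_EE_IVF against CM_EE, beside medians of 0.02 and 0.01 over all genes.

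Because CM_EE_AI and CM_EE_IVF lay on the same side in several members, the embryo media together were also set against NC and CM_EE together. This comparison was chosen after the values were seen and uses the same libraries as the 6 above, so it is no independent support for them. It called 0 of 31 members and 0% of genes by edgeR, with or without the R number as a block. DESeq2 with the block called 25 genes (0.132%), none of them a member. At an unadjusted p under 0.05 it held 2 members without the block, ITGA9 and LAMB1 (all genes 2.64%), and 8 with the block (all genes 8.8%). The 8 were ITGA9, LAMA1, LAMB1, ITGA2B and ITGB5 on the higher side and ITGA2, ITGB3 and ITGB4 on the lower side, and 5 of the 8 were also called between R numbers. The lowest member adjusted p was 0.498 by edgeR and 0.0947 by DESeq2, both with the block.

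**Figure D2:**
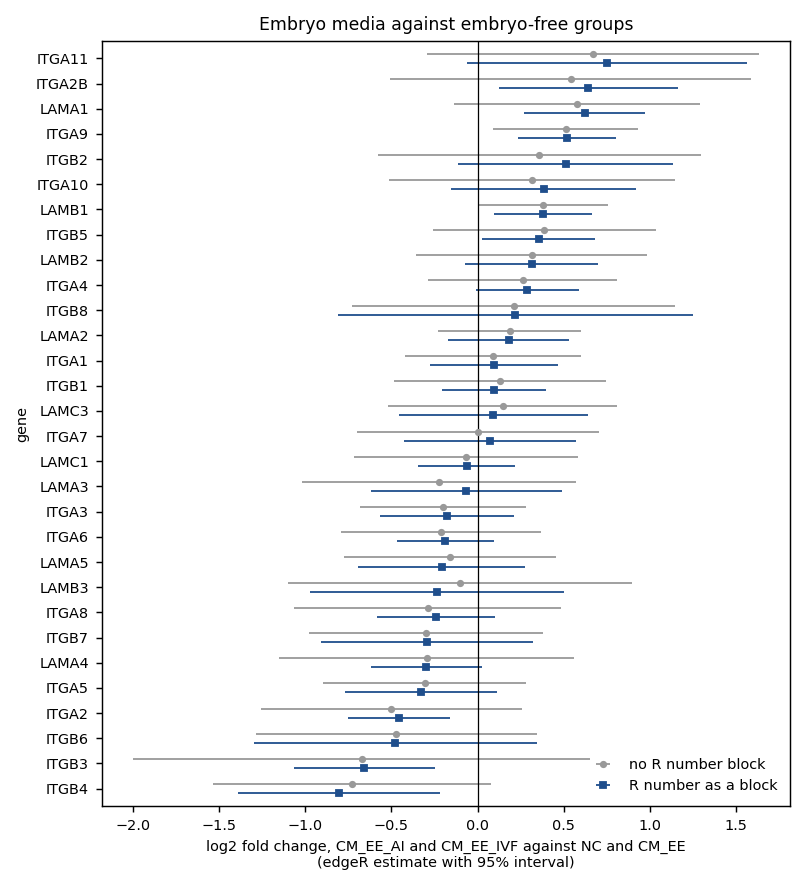
Log2 fold change of each of 30 genes for CM_EE_AI and CM_EE_IVF (6 libraries) against NC and CM_EE (6 libraries), with 95% intervals of the edgeR fit without the R number block (grey) and with it (blue). With the block, 8 intervals lie clear of 0, from ITGB4 at -0.81 to ITGA2B at 0.64, and none passed the adjusted threshold.

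In 5 members both embryo media libraries lay beyond both embryo-free libraries inside every R number, beside 2.77% of all genes. ITGA9 and LAMA1 were higher and ITGA2, ITGB3 and ITGB4 lower in the embryo media. ITGA9 stood at 61.4 ± 11.8 CPM in the embryo-free and 87.6 ± 14.2 CPM in the embryo media libraries (SD, n = 6), and the log2 fold change was 0.52 (95% interval 0.23 to 0.8) with the block. LAMA1 stood at 105 ± 44.5 and 156 ± 55 CPM, with 0.62 (95% interval 0.27 to 0.97) on that scale. ITGB3, the partner of ITGAV in the vitronectin receptor of endothelial cells, stood at 94.5 ± 64.5 and 58.4 ± 38.3 CPM, with -0.66 (95% interval -1.07 to -0.25). ITGA2, the collagen receptor subunit, stood at 60.6 ± 25.6 and 42.9 ± 15 CPM, with -0.46 (95% interval -0.75 to -0.16). ITGB4 differed by -0.81 (95% interval -1.39 to -0.22). These SDs include the differences between R numbers. Across R numbers the 6 embryo media libraries overlapped with the 6 embryo-free ones in all 31 members, and 0.18% of all genes were apart.

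**Figure D3:**
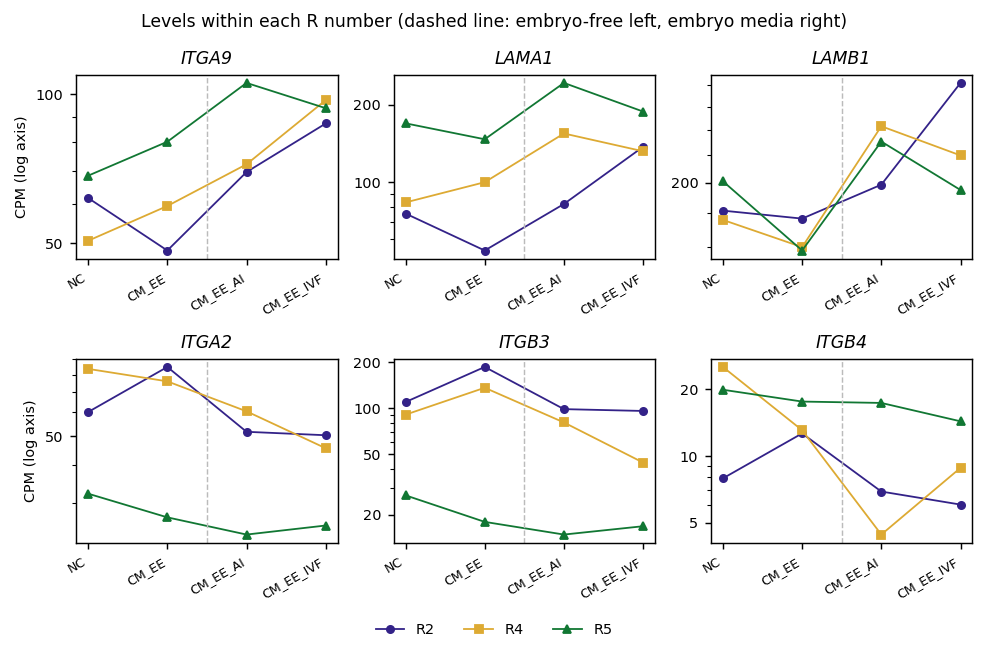
CPM on a log axis in the 4 groups for 6 genes, with 1 line for each R number and a dashed line between embryo-free and embryo media. In R2, R4 and R5 alike, ITGA9 and LAMA1 are higher right of the dashed line and ITGA2, ITGB3 and ITGB4 lower, while R5 lies far below R2 and R4 for ITGA2 and ITGB3.

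The other members with an unadjusted p under 0.05 in this comparison had smaller or less even differences. LAMB1 differed by 0.38 (95% interval 0.1 to 0.66), ITGB5, a further partner of ITGAV, by 0.35 (95% interval 0.02 to 0.68) and ITGA2B by 0.64 (95% interval 0.12 to 1.16), all on the log2 scale with the block. The direction was the same in R2, R4 and R5 for 16 of 31 members, beside 35.2% of all genes. Of these 10 were higher in the embryo media (all genes 19.2%) and 6 lower (16%). The median over the 31 members was 0.07, beside 0.01 over all genes.

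Cell type markers were read in the same comparison. Of the fibroblast list 7 of 7 genes had an unadjusted p under 0.05 on the higher side with the block (all genes 5.34%), at a median log2 value of 0.73, and 0 were called after adjustment. Their summed level was 246 to 688 CPM in the embryo-free and 396 to 1002 CPM in the embryo media libraries. Steroidogenic markers held 3 of 8 on the higher side, with a median of 0.45 and sums of 1336 to 2800.1 against 1499 to 5809 CPM. Pericyte and smooth muscle markers held 4 of 9 on the higher side, with a median of 0.5. Endothelial markers held 2 of 9 on the lower side (all genes 3.46%), with a median of -0.27 and sums of 902 to 1932 against 879.8 to 1545 CPM. No marker gene of these 4 lists was at 0 in all libraries, and their part in the values of the integrins and laminins was not tested.

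Between the R numbers, 15 of 31 members differed, 10 of 20 integrins and 5 of 11 laminins, by an edgeR F test over the 3 numbers with the group in the model. Over all genes 26.7% were called, 5063 of 18939, beside 48.4% of the members. DESeq2 called 18 members, beside 31.7% of all genes. Leaving out 1 library in turn gave 11 to 18 members. By mean CPM, 5 of the 15 were highest in R2 (ITGB3, LAMA4, LAMC1, ITGA6 and ITGA4), 4 in R4 (ITGA2, ITGA8, ITGB1 and LAMA3) and 6 in R5 (ITGA2B, LAMA1, ITGB5, LAMB2, ITGA10 and ITGB2). Each R number is 1 set of 4 libraries, so these differences belong to the sets and to no treatment. Nearest to the threshold, LAMA3 was called with an adjusted p of 0.0441 by edgeR, and ITGA7 was not, at 0.0601. Values with ± are means and SD over the 4 libraries of an R number from here on.

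**Figure D4:**
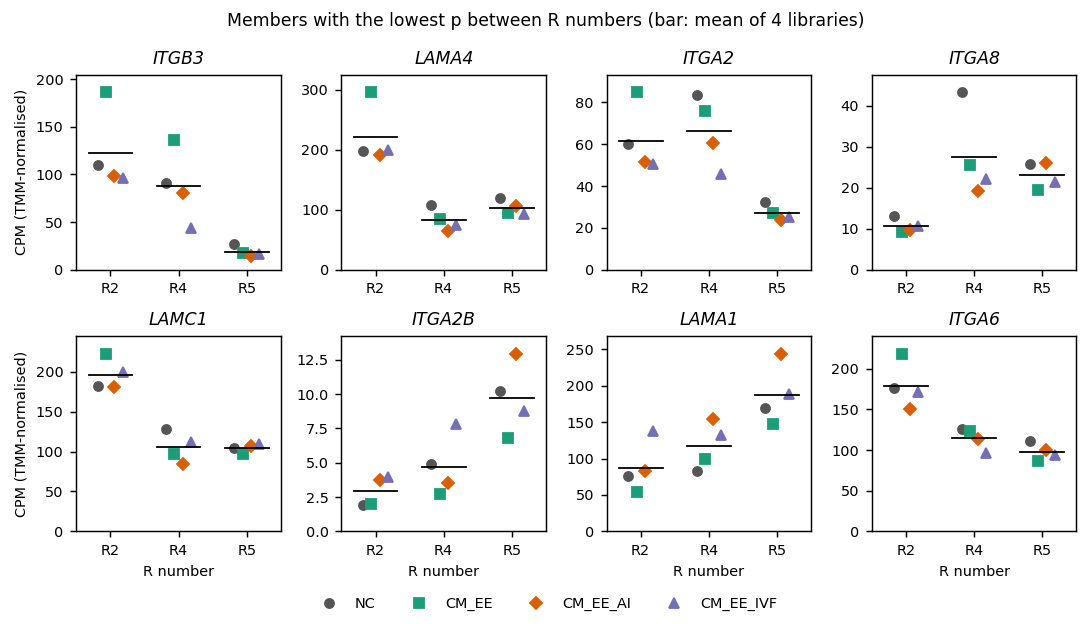
CPM of the 8 members with the lowest p between R numbers, with 4 points per R number, coloured by group, and a bar at their mean. ITGB3 and ITGA2 are lowest in R5, LAMA4, LAMC1 and ITGA6 are highest in R2, ITGA8 is lowest in R2, and ITGA2B and LAMA1 are highest in R5.

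Among collagen-binding alpha subunits, ITGA2 was lowest in R5. It was at 60.1, 84.8, 51.7 and 50.4 CPM in R2, 83.6, 76, 60.5 and 45.6 in R4 and 32.3, 26.9, 23.6 and 25.3 in R5, with NC, CM_EE, CM_EE_AI and CM_EE_IVF in that order. All R5 libraries lay below all others, while R2 and R4 overlapped, and its adjusted p was 4.2e-04 by edgeR. The log2 difference of R5 from R4 was -1.27 ± 0.17 (SE). ITGA10, a collagen receptor subunit best known from cartilage, was at 2.95 ± 0.784 CPM in R2, 1.86 ± 0.724 in R4 and 4.33 ± 0.23 in R5, with an edgeR adjusted p of 0.0219. ITGA1, which neighbours ITGA2 on chromosome 20 with 0 protein-coding genes between them in the RefSeq table, was not called between R numbers by edgeR (0.174) and was called by DESeq2 (0.0366). ITGA11, a collagen receptor subunit of fibroblasts, was at 6.98 ± 3.08 CPM in R2, 3.76 ± 3.09 in R4 and 5.49 ± 1.99 in R5 and was not called either, at 0.216 by edgeR.

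Of the laminin-binding alpha subunits, ITGA6 was called. It was at 176, 218, 150.1 and 171 CPM in R2, 126, 123, 114 and 96.4 in R4 and 111, 86.4, 101 and 93.7 in R5, in the same order of groups. All R2 libraries lay above all R4 and R5 libraries, 1.56-fold over R4 and 1.82-fold over R5 in the fit, with an edgeR adjusted p of 0.00346. ITGA3 and ITGA7, the muscle laminin receptor subunit, did not pass, with edgeR adjusted p of 0.260 and 0.0601. ITGA7 was at 5.02, 4.58, 6.73 and 6.67 CPM in R2, 14.2, 9.09, 6.06 and 14.8 in R4 and 9.41, 10.7, 10.9 and 8.05 in R5, in that order too, with all R5 libraries above all R2 libraries and R4 overlapping with both. ITGA3, which binds epithelial laminin, was at 6.25 ± 0.729 CPM in R2, 7.4 ± 1.73 in R4 and 8.69 ± 1.61 in R5.

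ITGA8 and ITGA2B of the RGD-binding subunits were called and ITGA5 was not (0.106 by edgeR). The ITGA8 levels listed above lay at 9.26 to 13.1 CPM in R2, below every R4 and R5 library, and R4 exceeded R2 by a log2 difference of 1.32 ± 0.19 (SE). ITGA2B was at 2.9 ± 1.11 CPM in R2, 4.72 ± 2.24 in R4 and 9.68 ± 2.58 in R5, 3.44-fold higher in R5 than in R2, with an edgeR adjusted p of 0.00224. R5 and R2 did not overlap, while R4 overlapped with both. ITGA2B also serves as a platelet marker, and no other gene of the platelet list was analysed here.

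Of the 2 alpha subunits that bind VCAM1, tenascin-C and osteopontin, ITGA4, best known from leukocytes, was highest in R2. It was at 24.8, 32.1, 27.4 and 35.3 CPM in R2, 17.9, 13.8, 20.4 and 19.9 in R4 and 17.3, 15, 20.7 and 21.5 in R5, with all R2 libraries above the others and an edgeR adjusted p of 0.00807. ITGA9 was not called, at 0.136.

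Among beta subunits ITGB3 had the widest differences of all members. It was at 109.6, 186, 98.5 and 95.8 CPM in R2, 90.6, 136, 80.6 and 44 in R4 and 26.8, 18, 14.8 and 16.8 in R5, in the order of groups used above. Every R5 library lay below every R2 and R4 library, with 26.8 CPM as the highest value in R5 and 44 CPM as the lowest in R4. The fitted level was 6.21-fold higher in R2 than in R5 and 4.33-fold higher in R4 than in R5, with an edgeR adjusted p of 5.5e-05. ITGB1, the partner of most alpha subunits, was also lowest in R5, at 156, 211, 160.3 and 202 CPM in R2, 192, 194, 245 and 242 in R4 and 129, 97.5, 109.6 and 111 in R5 (0.00393 by edgeR), without overlap with R2 or R4. ITGB5, which forms another vitronectin receptor with ITGAV, went the other way from ITGB3, at 95.4, 95.1, 87.5 and 125 CPM in R2, 136, 173, 264 and 190.2 in R4 and 189, 154, 228 and 209 in R5 (0.00487), with all R2 libraries below the others. ITGB2, the leukocyte beta subunit, was low and highest in R5, at 2.78 ± 0.982 CPM in R2, 2.77 ± 1.22 in R4 and 5.93 ± 0.463 in R5 (0.0276). By edgeR ITGB4, ITGB6, ITGB7 and ITGB8 did not pass, with ITGB4 nearest at 0.0614, and DESeq2 called ITGB4 (0.0374). ITGB6, an epithelial partner of ITGAV, was at 3.79 ± 1.72 CPM in R2, 4.22 ± 2.42 in R4 and 4.32 ± 1.18 in R5, and ITGB7, a lymphocyte partner of ITGA4, at 2.2 ± 0.297 CPM in R2, 2.19 ± 0.832 in R4 and 3.21 ± 0.801 in R5.

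The laminin alpha chains split by R number. LAMA4, the chain of endothelial basement membranes, was at 197, 296, 192 and 200.1 CPM in R2, 107, 85.2, 64.5 and 74.3 in R4 and 119, 94, 107 and 92.6 in R5. Every R2 library lay above every R4 and R5 library, 2.69-fold over R4 and 2.13-fold over R5 in the fit, with an edgeR adjusted p of 3.0e-04. LAMA1 ran the other way, at 87.3 ± 35.5 CPM in R2, 118 ± 32 in R4 and 187 ± 41.3 in R5, 2.21-fold higher in R5 than in R2 (0.00329 by edgeR). LAMA3, the alpha chain of epithelial laminin, was lowest in R2 at 9.31 ± 3.6 CPM in R2, 20.5 ± 6.82 in R4 and 16.1 ± 1.83 in R5 (0.0441). LAMA2, known from muscle, and LAMA5, widespread in adult basement membranes, were not called, at 0.694 and 0.187. LAMA2 was at 29.9 ± 7.58 CPM in R2, 33.9 ± 5.3 in R4 and 33.2 ± 4.8 in R5, and LAMA5 at 32 ± 8.19 CPM in R2, 24 ± 8.73 in R4 and 36.8 ± 4.99 in R5.

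LAMC1, the gamma chain shared by most laminins, was at 182, 222, 180.4 and 199.9 CPM in R2, 128, 97, 83.9 and 112 in R4 and 104, 96.4, 107 and 109 in R5. R2 lay above R4 and R5 without overlap, 1.87-fold and 1.88-fold in the fit, with an edgeR adjusted p of 0.00119, while R4 and R5 differed by a log2 value of -0.01 ± 0.16 (SE). LAMC3 was at 6.57, 5.88, 5.38 and 6.24 CPM in R2, 6.3, 3.87, 2.77 and 5.98 in R4 and 6.54, 6.06, 12 and 6.38 in R5 and was not called, at 0.227. Of the beta chains LAMB2, a beta chain of vascular and muscle laminins, was highest in R5 by its mean. It was at 17.1, 17.6, 19.2 and 24.9 CPM in R2, 20.1, 18.1, 14.6 and 33.8 in R4 and 34, 32.5, 47.3 and 33.7 in R5 (0.0108 by edgeR), and R5 overlapped with R4 but not with R2. LAMB1 was not called, at 209.8 ± 49.2 CPM in R2, 199.7 ± 38.4 in R4 and 196 ± 29.7 in R5 (0.888), and LAMB3, which joins LAMA3 in the epithelial laminin, was at 1.53 ± 1.02 CPM in R2, 2.74 ± 0.454 in R4 and 3.86 ± 0.209 in R5 and was not called by edgeR (0.0614) but by DESeq2 (0.0408).

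Counted by overlap, R5 and R2 were apart in 19 of 31 members (all genes 31%), R4 and R2 in 8 (18.5%) and R5 and R4 in 6 (22.1%). By edgeR, R5 against R2 called 15 members (all genes 20.8%), R5 against R4 called 8 (14.2%) and R4 against R2 called 7 (13.6%). The median log2 difference of the members was 0.34 for R5 against R2, beside 0.08 over all genes. It was 0.05 for R4 against R2, beside 0.04, and 0.05 for R5 against R4, beside 0.08.

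The share of each gene's variation that lay between R numbers and between groups was computed from sums of squares of log2(CPM + 0.5), with no test. The median share between R numbers was 56.9% over the 31 members and 40.2% over all genes, and the share between groups was 16.3% and 13.3%. R numbers held more than groups in 24 of 31 members (77.4%), beside 74.1% of all genes. This was 13 members without R2 (all genes 44%), 22 without R4 (54.4%) and 11 without R5 (42.1%). Groups outnumber R numbers, so unstructured variation alone gives groups the larger share, more so with an R number left out. The lower counts without R2 or R5 therefore cannot show that variation passes to the groups. LAMC1 was at the top with 88.5% between R numbers, followed by LAMA4 at 87.3% and ITGB3 at 86.9%. LAMB1 and ITGA9 stood at the other end, with 66.8% and 58.9% between groups and 2.2% and 25.1% between R numbers.

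**Figure D5:**
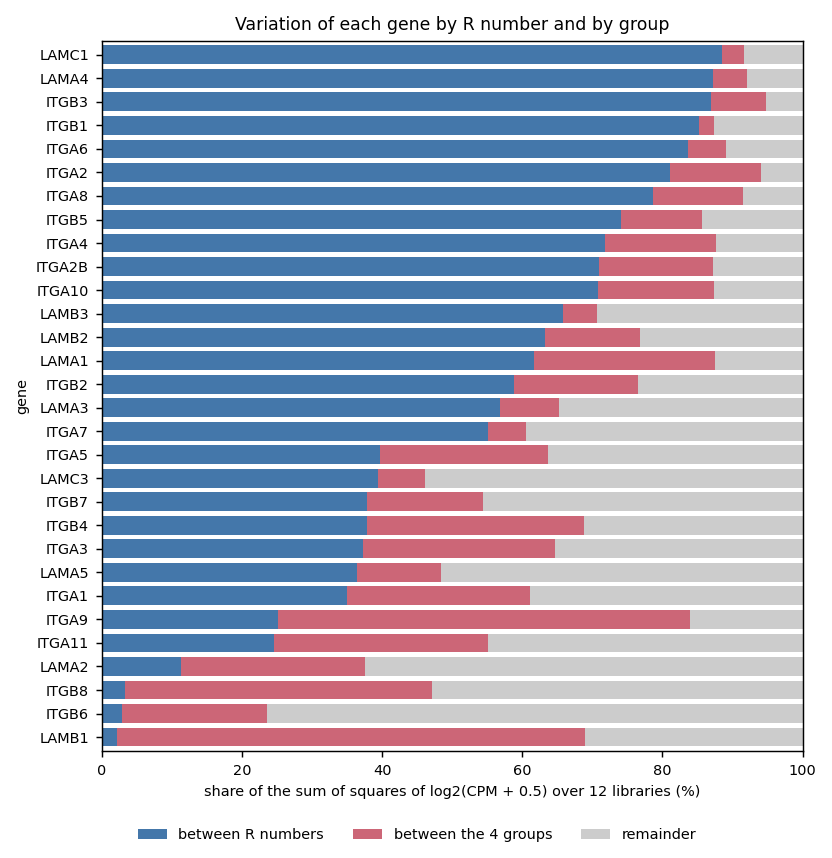
Share of the sum of squares of log2(CPM + 0.5) over 12 libraries that lies between R numbers (blue), between the 4 groups (red) and in the remainder (grey), for each of 30 genes sorted by the R number share. LAMC1, LAMA4 and ITGB3 exceed 80% between R numbers, and LAMB1 and ITGA9 are mostly between groups.

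Genes around the 2 families, from lists of matrix partners, ligands and adhesion proteins, were also read between R numbers, with 0 called in any comparison of groups. Their counts called between R numbers stand beside 26.7% of all genes. Basement membrane partners were called in 6 of 8 cases by edgeR: type IV collagen COL4A1 was at 863 ± 135 CPM in R2, 445 ± 112 in R4 and 278 ± 27.4 in R5, and nidogen NID1, which links laminin to type IV collagen, at 67.3 ± 10.2 CPM in R2, 29.4 ± 4.66 in R4 and 30.6 ± 2.92 in R5. Both were highest in R2, as LAMA4 and LAMC1 were. NID2 was highest in R4, at 59 ± 5.99 CPM in R2, 105 ± 17.3 in R4 and 50.6 ± 6.59 in R5. Perlecan (HSPG2) was also called and was highest in R5, at 254.7 ± 27.8 CPM in R2, 266 ± 53.8 in R4 and 456 ± 71.5 in R5. Of the 6 called partners, 4 were highest in R2, 1 in R4 and 1 in R5. Other integrin ligands were called in 7 of 10 cases, with tenascin-C (TNC) at 12.2 ± 3.41 CPM in R2, 1.55 ± 0.602 in R4 and 2.11 ± 1.58 in R5, thrombospondin 1 (THBS1) at 111 ± 6.1 CPM in R2, 248 ± 54.2 in R4 and 99.1 ± 13.1 in R5 and fibronectin (FN1) at 167 ± 29.5 CPM in R2, 197 ± 55.4 in R4 and 70.6 ± 5.18 in R5. FN1 was lowest in R5, where ITGB3 and ITGB1 were lowest.

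In a list of other laminin receptors and associated proteins, 4 of 6 genes were called. Syndecan 4 (SDC4) was at 94 ± 20.3 CPM in R2, 283 ± 73 in R4 and 42.8 ± 10.01 in R5. Syndecan 1 (SDC1) was at 11 ± 3.96 CPM in R2, 4.03 ± 1.52 in R4 and 1.61 ± 0.519 in R5. RPSA, which is also a ribosomal protein gene, was at 152 ± 11.1 CPM in R2, 79.2 ± 21.9 in R4 and 84.6 ± 11.4 in R5. Of 20 genes of the adhesion machinery inside the cell 7 were called (all genes 26.7%). Among these, kindlin 2 (FERMT2), which activates integrins, was at 131 ± 24.8 CPM in R2, 95.8 ± 12.1 in R4 and 56.8 ± 6.57 in R5. Focal adhesion kinase (PTK2) was at 259.6 ± 36.2 CPM in R2, 146 ± 26 in R4 and 133 ± 12.1 in R5, and LIMS1 at 47.7 ± 5.88 CPM in R2, 33.1 ± 4.14 in R4 and 24.1 ± 3.21 in R5. FERMT2 was lowest in R5 without overlap, whereas PTK2 was highest in R2 and its R4 and R5 libraries overlapped. Of the 7 called machinery genes, 3 were highest in R2, 2 in R4 and 2 in R5. Of the 7 integrin-named genes in the list that holds ITGAV, 2 were called, near the share over all genes (26.7%). ITGAV, the alpha partner of ITGB3 and ITGB5, was at 249.6 ± 38.3 CPM in R2, 303 ± 34 in R4 and 94 ± 22.1 in R5. Like ITGB3 it was lowest in R5, whereas ITGB5 was lowest in R2 and alike in R4 and R5. ITGAL, a leukocyte subunit that pairs with ITGB2, was highest in R5, at 4.12 ± 0.693 CPM in R2, 4.98 ± 1.68 in R4 and 12.1 ± 1.46 in R5. In the embryo media comparison by edgeR with the block, 2 of 10 ligands, the collagens COL1A1 and COL3A1, had an unadjusted p under 0.05 on the higher side. The same held for 4 of 20 machinery genes and 0 basement membrane partners, beside 5.34% of all genes. On the lower side 1 of 6 genes of the laminin receptor list, BCAM, had an unadjusted p under 0.05, beside 3.46% of all genes.

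Cell type markers were also read between R numbers, where 26.7% of all genes were called. Endothelial markers were called in 7 of 9 cases, 6 of them highest in R2, and their sum ran over 1506 to 1932 CPM in R2, 879.8 to 1304 in R4 and 902 to 1256 in R5, so R2 was high as it was for LAMA4, LAMC1 and ITGA6. Fibroblast markers were called in 5 of 7 cases, each highest in R2, with sums of 621 to 1002 CPM in R2, 246 to 984 in R4 and 325 to 403 in R5. Steroidogenic markers, which define the luteal cells, were called in 7 of 8 cases, 5 of them highest in R4, with sums of 1382 to 2481 CPM in R2, 1579.9 to 5809 in R4 and 1336 to 2022 in R5. Pericyte and smooth muscle markers were called in 6 of 9 cases, 4 of them highest in R4. Of macrophage markers 1 of 7 was called. T cell markers, read beside the leukocyte subunits ITGB2 and ITGAL, summed to 2.8 to 8.43 CPM in R2, 4.53 to 6.62 in R4 and 7.38 to 10.7 in R5, with 0 of 7 called. The steroidogenic markers were present in every library, and epithelial markers summed to 15.7 to 26.4 CPM in R2, 21 to 112 in R4 and 7.35 to 10.7 in R5, with 2 of 6 called. No marker of these lists was at 0 in all libraries. Their part in the differences of integrins and laminins was not tested.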

How the data were processed

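The corpus luteum table holds whole read counts per gene that the authors deposited for 12 columns. Per the submitters' processing notes the tools were STAR, featureCounts, Trim Galore, cutadapt and DESeq2, with versions, build and annotation not given in the sources used here. Columns whose headers start with End were labelled here as estimated counts, which no source calls them, and all values the authors deposited were whole. The label changed no value, and all 12 columns, the DMEN control columns included, were handled alike as whole read counts. The lowest row sum was 36 counts. The endometrial tables use identifiers that the files used here do not pair with symbols and were not used. Groups were taken from the column names, and no 2 libraries of a group held identical values (12 pairs).

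Counts were filtered with filterByExpr by group and scaled by TMM, and all 12 libraries entered 1 edgeR quasi-likelihood fit, with Benjamini-Hochberg adjustment over 18939 genes at 0.05. Intervals are 95%. The main fit has no block. The R numbers pair the libraries. Deviations from group means correlated at 0.290 to 0.719 in 18 pairs with the same number, over 15016 genes. With different numbers they correlated at -0.565 to 0.0363. Deviations within a group cancel out for each gene, so positive values for the same number make those for different numbers negative on average. The negative values are therefore no separate sign of pairing. The biological coefficient of variation was 0.519 without and 0.389 with the block. R numbers were tested with an F test in the model of group and R number.

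Named per comparison were the 2 members with the lowest p among those whose mean CPM reached 1 in one or both groups, between R numbers the 8 with the lowest p, and the 2 with the highest mean CPM of each role. Of the 31 members, 1 enters the counts and is not reported here on its own. From related lists genes with the 3 lowest p were named, and HSPG2 was named besides. The members, lists and rules were chosen with earlier results of these data known. Alternatives were DESeq2, RLE size factors, removal of mitochondrial genes, no filter, fits of 2 groups, leaving out each library and a pseudocount of 2 in place of 0.5. Symbols were matched to RefSeq, assembly ARS-UCD2.0, which was used for names and neighbours alone. Software was edgeR 4.0.16, DESeq2 1.42.0 and limma 3.58.1 in R 4.3.3, with pandas 2.3.3, numpy 2.4.6 and matplotlib 3.10.9 in Python 3.11.15.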

Additional observations from a re-analysis of the deposited data

How the results depend on the processing

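With the R number as a replicate block, members called stayed at 0 in the 6 comparisons of groups by edgeR and DESeq2. Over all genes edgeR called 0 with and without the block, whereas DESeq2 went from 0 to 1 gene in CM_EE_AI against CM_EE and from 0 to 25 in the added comparison of embryo media, with no member among them. The members called between R numbers, 15, were 18 by DESeq2, 14 with RLE size factors, 14 without mitochondrial genes, 15 without the filter, 17 without the group term and 11 to 18 without 1 library. The 8 named members kept an adjusted p of at most 0.0315 in these alternatives. The log2 fold change of ITGA2B in CM_EE against NC ran from -1.26 to 0.14 without 1 library, and it turned to 0.14 without the NC library of R5. In the embryo media comparison with the block, ITGA9 ran from 0.42 to 0.59, LAMA1 from 0.46 to 0.71, ITGB3 from -0.8 to -0.53, ITGA2 from -0.54 to -0.39 and ITGB4 from -0.98 to -0.53, with adjusted p from 0.0947 to 0.991 for ITGA9. The median share of variation between R numbers was 24.4% without R2 and 26.5% without R5, and that between groups 44.3% and 39.2%. Without R4 they were 67.1% and 14.4%. Groups outnumber the R numbers that are left, and unstructured variation alone then gives groups the larger share. The group shares without R2 or R5 therefore cannot be read as a larger part of the groups. Beside the 4 shares without R2 or R5 and the reversed ITGA2B value, the other 714 values under alternatives kept their direction and side of the threshold, or for shares and counts stayed close to the main value. A count was taken as close within a factor of 1.5. Adjusted p between R numbers was followed in this way for the 8 named members. Outside these 8, ITGA1, ITGB4 and LAMB3 were not called by edgeR but were by DESeq2.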

Other observations

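The balance of the laminin alpha chains LAMA4 and LAMA1 was read in each library. The log2 ratio of their CPM was 1.39 in NC, 2.45 in CM_EE, 1.22 in CM_EE_AI and 0.54 in CM_EE_IVF of R2. In R4 it was 0.36, -0.23, -1.26 and -0.83 in the same order, and in R5 -0.51, -0.64, -1.19 and -1.02. The ratio was above 0 in all R2 libraries and below 0 in all R5 libraries, and within each R number both embryo media lay below both embryo-free libraries. Transcript lengths differ between the genes, so the sign of the ratio has no meaning of its own and the ratio is read only between libraries. It was chosen after the values were seen and was not tested.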
